A study of Mus musculus with 94 samples.

Results

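The genes described here carry names given for the machinery of motile cilia. They are all symbols beginning with Dnah, Dnai, Cfap, Tekt or Spag followed by a digit, plus Foxj1, with a mean of at least 0.5 CPM (counts scaled to a common library size) over the 47 libraries of epididymal white fat (eWAT). Of 47 such symbols in the file, 40 met that mean, out of 20411 genes in all: 10 of 12 Dnah, 16 of 17 Cfap, 3 of 5 Tekt and 10 of 12 Spag symbols, and Foxj1, while no Dnai symbol was present. Just inside the threshold were Dnah7c at 0.635 CPM and Spag17 at 0.726 CPM, and just outside it were Dnah8 at 0.497 CPM and Cfap61 at 0.310 CPM. Inguinal fat (iWAT), which lies under the skin and away from the reproductive tract, served as the control tissue, and there 18 of the 40 reached a mean of 0.5 CPM.

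Poly(A) RNA of both depots was sequenced from 47 male C57BL/6JBomTac mice, which gave 94 libraries in 8 groups per depot. Obese mice (n = 5) ate the high-fat diet D12492 for 18 weeks from an age of 10 weeks and were thus about 28 weeks old. Regression mice ate it for the same 18 weeks and then the low-fat diet D12450J for 2, 6 or 12 weeks (n = 6 each), to ages of about 30, 34 and 40 weeks. Lean mice (n = 6 at each of the 4 times) stayed on D12450J throughout, and the labels name no engineered allele. Mice were housed 3 to an enclosure and the labels do not say which mice shared one. Mouse numbers within most groups run in 2 sets of 3 consecutive numbers, and whether such a set shared an enclosure is not given. Each p-value below thus rests on the spread between mice alone and takes no account of shared enclosures.

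A motile cilium is a beating projection built on a ring of microtubule doublets around a central pair. Axonemal dynein heavy chains (most Dnah genes) form the outer and inner arms that make the doublets slide, tektins are filament proteins of the doublets, and many Cfap and Spag proteins belong to the central pair or to other axonemal structures. FOXJ1 is the transcription factor that switches on these genes in multiciliated cells. In the male tract such cells line the efferent ducts, which join the testis to the epididymis beside the epididymal fat pad.

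Promoters are shown for Spag6, Cfap44 and Dnah10, with Pearson correlations of 0.98, 0.98 and 0.96 with the mean of the other members in eWAT. Dnah5 (0.96), the outer arm chain of motile cilia with the highest level, is shown as well. These promoters were chosen after the matches described below were seen, and not by rank of correlation. RFX factors, which act with FOXJ1 in ciliated cells, bind the X-box, and the capitals below mark its core GTTGCC on either strand (GGCAAC as read on the printed strand). Each sequence is the 250 bases before a RefSeq transcription start (build GRCm38.p6, the mm10 assembly), 5′ to 3′ on the plus strand: Spag6 at chr2:18698772-18699021, Cfap44 at chr16:44394549-44394798, Dnah10 at chr5:124724835-124725084 and Dnah5 at chr15:28203516-28203765.
Spag6: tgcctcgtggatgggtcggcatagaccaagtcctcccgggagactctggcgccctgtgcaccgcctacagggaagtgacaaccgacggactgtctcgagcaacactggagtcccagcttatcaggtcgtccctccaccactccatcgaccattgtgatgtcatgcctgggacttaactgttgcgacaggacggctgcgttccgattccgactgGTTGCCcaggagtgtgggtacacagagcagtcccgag
Cfap44: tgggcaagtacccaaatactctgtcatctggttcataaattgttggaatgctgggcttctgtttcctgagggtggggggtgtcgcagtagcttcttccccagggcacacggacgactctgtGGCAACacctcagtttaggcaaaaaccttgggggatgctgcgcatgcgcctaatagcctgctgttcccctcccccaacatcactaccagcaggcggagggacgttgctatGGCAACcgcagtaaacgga
Dnah10: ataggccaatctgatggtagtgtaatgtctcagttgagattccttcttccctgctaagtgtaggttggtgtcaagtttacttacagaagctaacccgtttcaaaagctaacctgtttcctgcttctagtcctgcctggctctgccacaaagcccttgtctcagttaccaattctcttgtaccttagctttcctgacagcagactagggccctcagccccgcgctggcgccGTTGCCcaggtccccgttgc
Dnah5: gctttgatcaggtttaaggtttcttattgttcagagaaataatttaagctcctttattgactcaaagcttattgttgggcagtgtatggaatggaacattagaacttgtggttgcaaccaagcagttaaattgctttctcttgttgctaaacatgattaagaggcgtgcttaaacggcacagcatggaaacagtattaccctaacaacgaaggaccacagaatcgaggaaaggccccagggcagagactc
The Cfap44 stretch holds 2 such cores, those of Spag6 and Dnah10 hold 1 each, and that of Dnah5 holds none. RefSeq promoters (300 bases, with 50 after the start) were found for 35 of the 40 members. GTTGCC was in a promoter of 14 of these 35 genes (40.0%), against 14.1% of all 27025 genes with a promoter. It was absent from the promoters of Dnah11, Dnah9 and Cfap57, which are not shown and had correlations of 0.98, 0.97 and 0.97. The full X-box palindrome was in 0 of the 35 and in 0.529% of all genes, and the forkhead core TGTTTAC was in 3 of 35 (8.57%) and in 4.05% of all genes. These letter matches are a description and locate no bound factor.

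The level of the group was set library by library. Foxj1 (chromosome 11, 116330704 to 116335399) averaged 65.9 CPM in eWAT and ran from 0 to 295 CPM. In 23 of 47 libraries it was at 10 CPM or more and in 18 it was below 1 CPM, so the libraries fell into high and low ones within nearly every group. In iWAT the highest of 47 libraries had 0.768 CPM and none reached 10 CPM. In bulk tissue, fewer ciliated cells and less RNA per ciliated cell cannot be told apart.

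In lean mice at the time of obesity Foxj1 was 1.33 CPM in the lowest library, 72.3 CPM at the median and 295 CPM in the highest. The 5 obese mice had 73.1, 73.2, 71.2, 0.117 and 92.6 CPM. At 2 weeks the lowest, median and highest values were 0, 1.74 and 229 CPM in lean and 0.511, 46.7 and 164 CPM in regression mice. Both pairs of groups overlapped over most of their range.
At 6 weeks they were 0, 0.155 and 168 CPM in lean and 0.170, 0.478 and 16.3 CPM in regression mice. At 12 weeks they were 22.8, 146 and 251 CPM in lean and 0, 0.313 and 240 CPM in regression mice. Lean mice at 12 weeks were the one group with all 6 libraries at 10 CPM or more, whereas in regression mice at that time replicate 3 alone was high, at 240 CPM, and the other 5 were below 1 CPM. The shares at 10 CPM or more were otherwise 3 of 6 lean and 4 of 5 obese mice, 2 of 6 lean and 4 of 6 regression mice at 2 weeks, and 2 of 6 lean and 1 of 6 regression mice at 6 weeks.

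**Figure D1:**
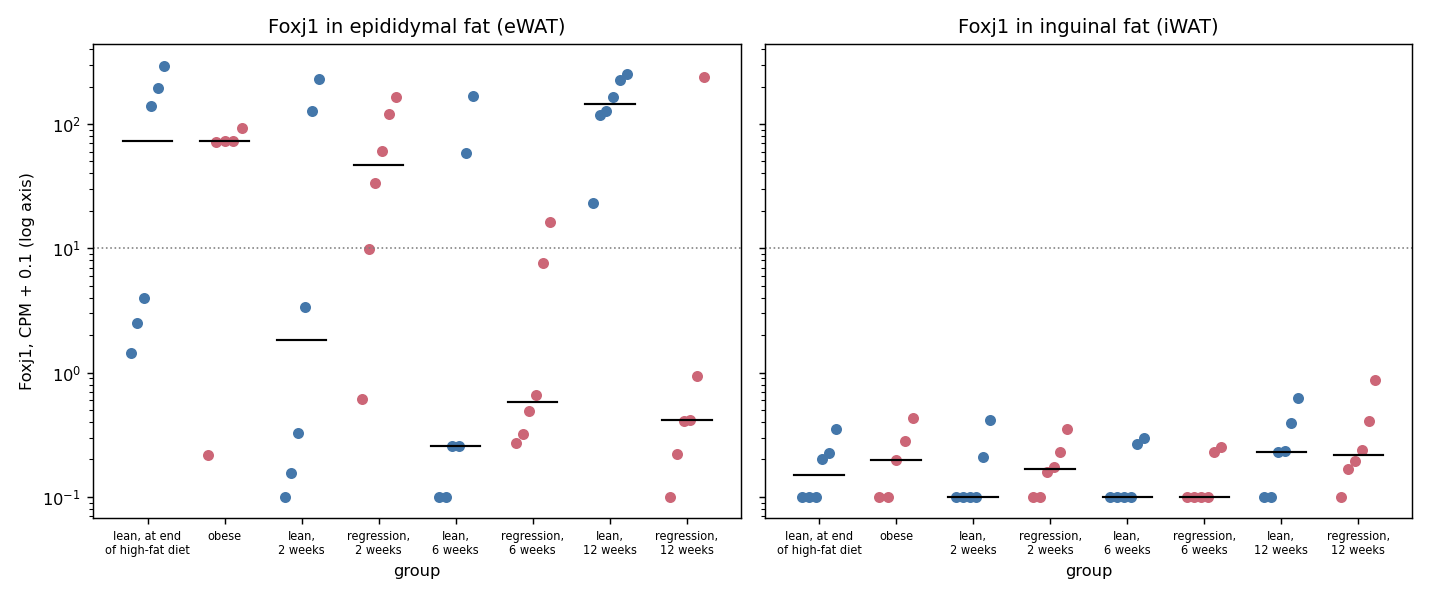
Foxj1 in every library of eWAT (left) and iWAT (right), as CPM plus 0.1 on a log axis, by group; blue points are lean mice, red points obese or regression mice, black bars medians, and the dotted line marks 10 CPM. In eWAT most groups hold both high and low libraries, all 6 lean mice at 12 weeks lie above the line, and in iWAT no library reaches it.

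The log2 fold changes of Foxj1 were -0.82 ± 1.52 (SE of the fit) in obesity, -0.09 ± 1.45 at 2 weeks, -3.21 ± 1.66 at 6 weeks and -2.01 ± 1.49 at 12 weeks. None passed edgeR's quasi-likelihood test with Benjamini-Hochberg adjustment (adjusted p = 0.753, 0.981, 0.217 and 0.346). An exact two-sided permutation test of log2(CPM + 0.5), added after the values were seen, gave a mean difference of -5.93 at 12 weeks (exact p = 0.0130, adjusted over the 4 comparisons 0.0519), 0.30 in obesity (exact p = 0.857, adjusted 0.857), 2.37 at 2 weeks (exact p = 0.258, adjusted 0.515) and -0.69 at 6 weeks (exact p = 0.710, adjusted 0.857). The smallest p it can give is 0.00216, or 0.00433 in obesity. The sign for obesity and for 2 weeks thus depended on the scale used. Without replicate 3 of the regression mice, the fitted log2 fold change of Foxj1 at 12 weeks was -8.80. That library was singled out by its high Foxj1, so the value is a description and no test.

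Mouse numbers fall in 2 series, with replicates 1 to 3 of each group in one and 4 to 6 in the other. Fitted apart with edgeR, the log2 fold change of Foxj1 was 0.49 and -1.88 in obesity, -2.28 and 0.39 at 2 weeks, -3.82 and 5.41 at 6 weeks, and -1.18 and -8.21 at 12 weeks, for replicates 1 to 3 and 4 to 6 in that order. The sign at 12 weeks was the same in both series and differed between them at the other times. No adjusted p of these fits was under 0.05.

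Among outer arm heavy chains, Dnah5 (chromosome 15, 28203752 to 28472052), a chain of airway and other motile cilia, followed the libraries of Foxj1. It was 0.476, 9.47 and 49.9 CPM (lowest, median, highest) in lean mice at the time of obesity, and 10.96, 14.2, 13.1, 0.234 and 12.6 CPM in the obese mice. In regression mice at 12 weeks it reached 32.8 CPM in replicate 3, whereas none of the other 5 exceeded 0.232 CPM, against 4.08 to 42.8 CPM in lean mice. Its log2 fold changes were -0.75 ± 1.34, 0.27 ± 1.30, -2.86 ± 1.49 and -2.12 ± 1.33 at the 4 times, and none passed the test. Over the 23 libraries with Foxj1 at 10 CPM or more, the Dnah5 CPM was 10.0% to 38.6% of the Foxj1 CPM, with a median of 15.5%. The highest of these ratios was in replicate 2 of the regression mice at 2 weeks, a library of only 1.32 M counts, where 1 count is 0.758 CPM.
Dnah9, another outer arm chain, held a narrower ratio of 6.73% to 14.9% (median 8.82%), and Dnah11 held 3.41% to 13.7% (median 6.23%).

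Dnah17 (chromosome 11, 118021723 to 118130634), the outer arm chain known from sperm flagella, did not follow the group. Its Pearson correlation with the mean of the other members over the 47 eWAT libraries was -0.03, and it averaged 4.37 CPM in eWAT and 4.27 CPM in iWAT. At 2 weeks it was 2.53, 3.19 and 4.05 CPM in lean and 4.61, 5.74 and 9.86 CPM in regression mice, so the groups did not overlap, and it rose by 0.69 ± 0.19 on the log2 scale (adjusted p = 0.00408). In iWAT at that time its log2 fold change was 0.26 ± 0.25 (adjusted p = 0.478). Its exons overlap those of Pgs1 on the opposite strand, and since no source used here gives the strand setting, reads of both genes cannot be told apart.

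Inner arm heavy chains were led by Dnah10 (chromosome 5, 124725085 to 124834308). It was 0.305, 6.96 and 20.7 CPM in lean mice at the time of obesity and 7.13, 6.28, 6.82, 0.234 and 6.60 CPM in obese mice. At 12 weeks it was 2.17, 12.8 and 22.4 CPM in lean and 0.242, 0.515 and 17.7 CPM in regression mice, a log2 fold change of -2.14 ± 1.05 (adjusted p = 0.153). The library with 17.7 CPM was again replicate 3, and without it the groups did not overlap. Dnah1, Dnah2, Dnah6 and Dnah7b, further inner arm chains, correlated with the other members at 0.94, 0.91, 0.94 and 0.89, whereas Dnah7c, which is close in sequence to Dnah7b and could share reads with it, had a correlation of 0.49.

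Of the tektins, Tekt1 and Tekt4 followed the group (correlations of 0.88 and 0.95). Tekt2 (chromosome 4, 126322121 to 126325688), the tektin with the highest mean, did so less, with a correlation of 0.52 and 2.63 to 8.10 CPM over all eWAT libraries. It was 5.57, 6.64 and 7.85 CPM in lean and 3.42, 4.56 and 7.38 CPM in regression mice at 12 weeks, a log2 fold change of -0.54 ± 0.22 (adjusted p = 0.0856). Central pair genes were led by Cfap69 (chromosome 5, 5579278 to 5664239), at 2.17, 6.21 and 13.1 CPM in lean and 0.726, 1.44 and 10.2 CPM in regression mice at 12 weeks. Its log2 fold change was -1.30 ± 0.82 (adjusted p = 0.262). Spag6 and Spag16, also of the central pair, were at 0 in 14 and 18 of the 47 libraries and at most 12.5 and 5.10 CPM.
Per kilobase of exon, a scale on which genes can be set side by side, Foxj1 averaged 25.1 CPM per kb in eWAT, Cfap126 3.15, Tekt2 2.49, Tekt1 2.45 and Dnah5 0.658.

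**Figure D2:**
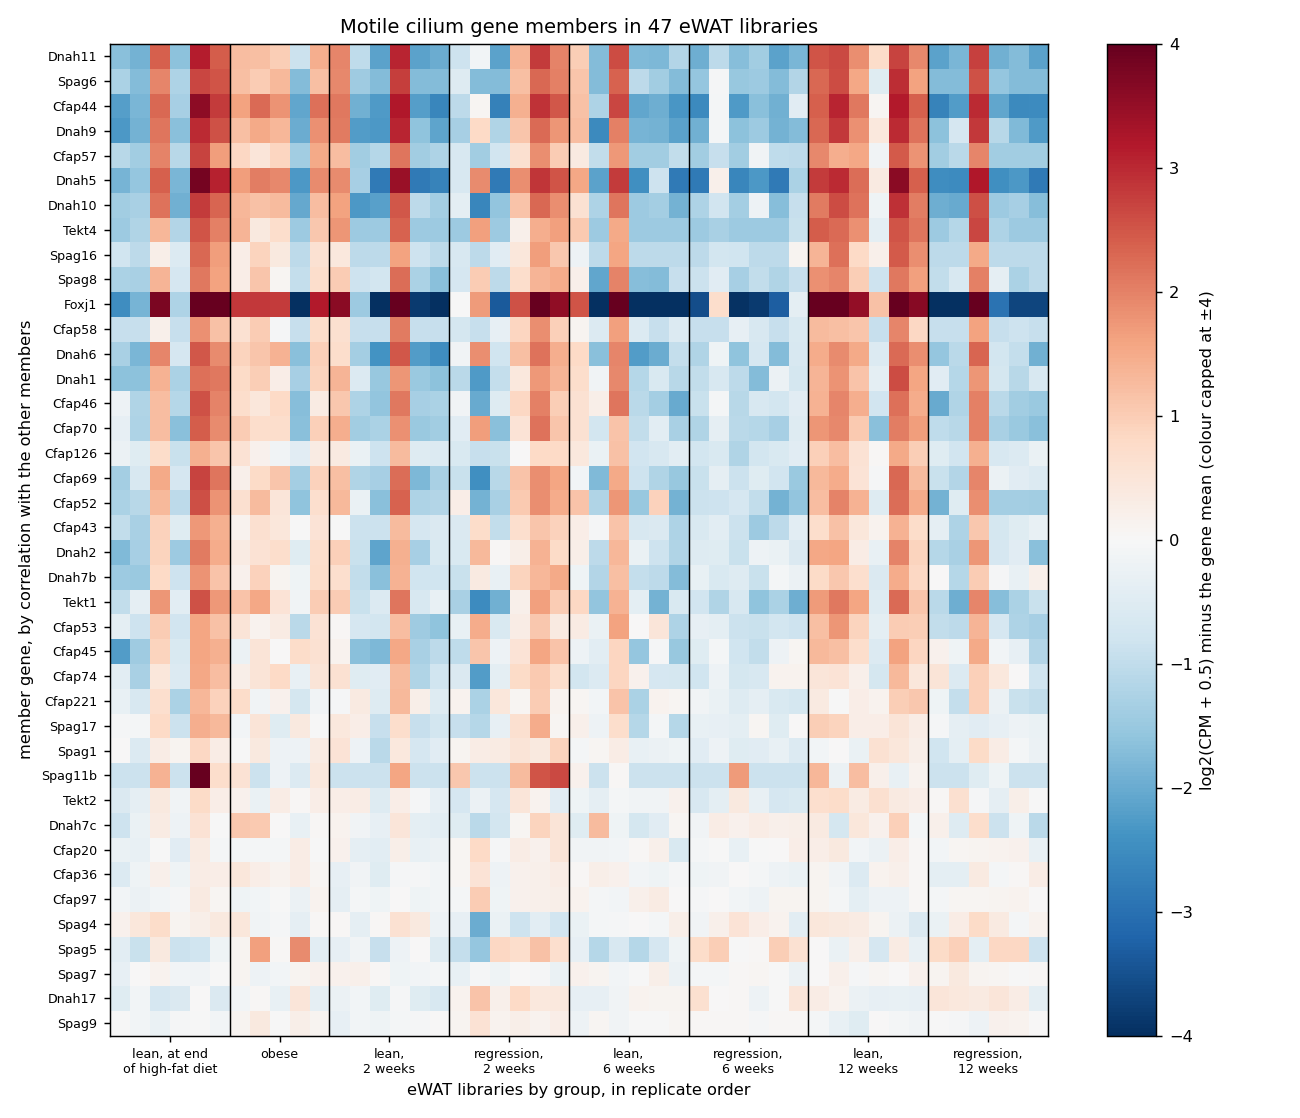
Each of the 40 members (rows, ordered by correlation with the other members) in the 47 eWAT libraries (columns, by group), as log2(CPM + 0.5) minus the mean of the gene, red for high and blue for low. Whole columns are red or blue for the upper 25 rows, including replicate 3 of the regression mice at 12 weeks, while the lowest rows show little change between libraries.

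The likeness of the members was not uniform. Across eWAT libraries 25 of 40 had a correlation of 0.8 or more with the mean of the others, with a median of 0.92 and a range from -0.24 to 0.98, against 768 of 14449 other genes. The points share library depth and the same mice, so this is a description. In iWAT, over the 18 members at 0.5 CPM there, the median was 0.35 and 0 reached 0.8. Genes with low correlations in eWAT were mostly ones that many cell types express, among them Spag9 (a scaffold of JNK signalling, -0.24), Spag7 (0.01), Spag5 (a mitotic spindle protein, 0.03), Cfap97 (0.09), Cfap36 (0.44) and Cfap20 (0.46). Spag9 alone averaged 211 CPM in eWAT and 201 CPM in iWAT. Exons of Cfap97, Spag17 and Dnah11 overlap Snx25, Wdr3 and Cdca7l on the opposite strand and those of Cfap43 overlap Itprip, so their reads may be shared.

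The members' level by depot is a description, since the rule required a level in eWAT. Of the 39 name-pattern symbols with a mean of 0.5 CPM over both depots, 32 were higher in eWAT and 1, Spag7, was lower, in edgeR's fit with mouse as a block, where 27.4% of all genes were higher and 31.0% lower. That filter also admits symbols through their eWAT level alone, such as Tekt4 (1.95 CPM in eWAT and 0.0027 CPM in iWAT), and only 19 of the 47 symbols reached 0.5 CPM in iWAT, so nothing is read from the count. Foxj1 averaged 65.9 CPM in eWAT and 0.109 CPM in iWAT, and Dnah5 averaged 10.3 and 0.0187 CPM. Spag9, Dnah17, Spag5 and Cfap97 did not pass the test between the depots, with log2 fold changes of -0.01, -0.03, 0.02 and 0.05. Library numbers run in a separate block for each depot, so depot and library order cannot be told apart in any of these values.

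**Figure D3:**
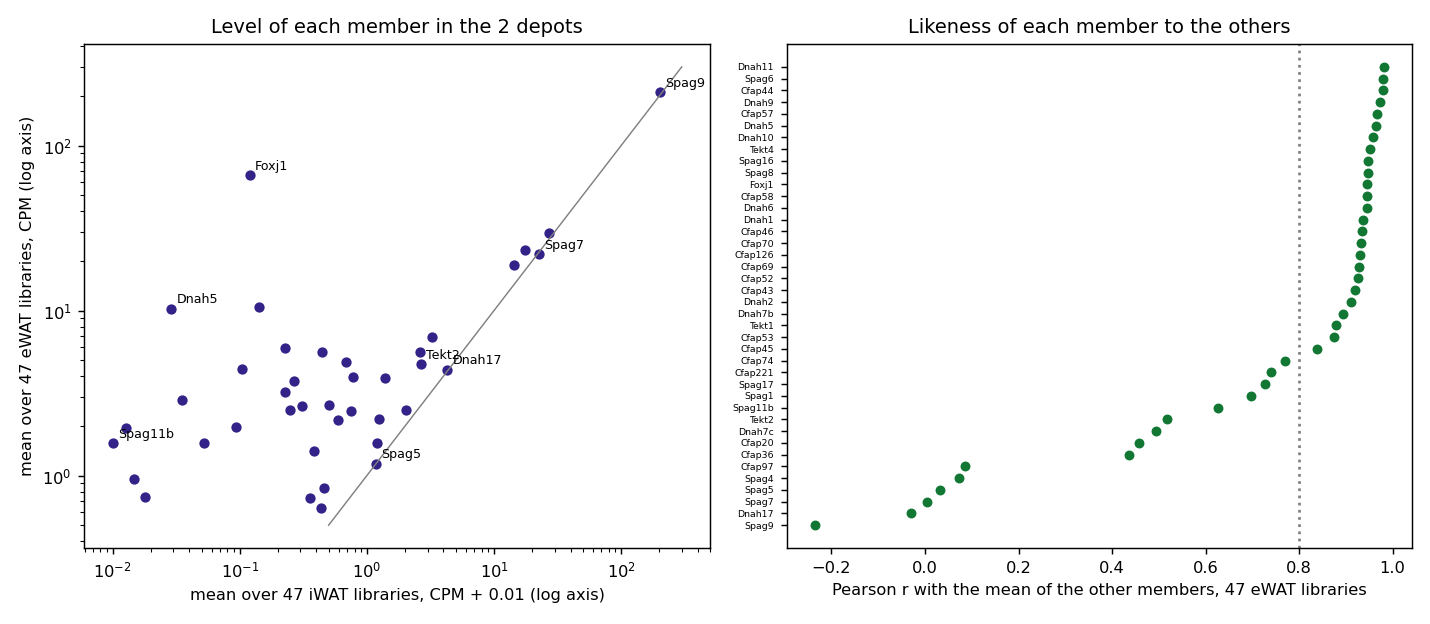
Left, the mean CPM of each member over 47 eWAT libraries against its mean over 47 iWAT libraries, both on log axes, with the line of equal levels; right, the Pearson correlation of each member with the mean of the others in eWAT, with a dotted line at 0.8. Foxj1 and Dnah5 lie far above the line of equal levels and Spag9, Spag7 and Dnah17 lie on it, and 25 points of the right panel lie at or beyond 0.8.

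Marker lists bore on the label. Of 39 markers of multiciliated cells outside the name pattern, 33 had a correlation of 0.8 or more with the members' mean, as did 5 of 6 measured regulators of the multiciliated programme, among them Trp73 (0.97), Gmnc (0.96) and Myb (0.93). Rsph4a, a radial spoke gene, ran from 0 to 53.9 CPM in eWAT and to 0.265 CPM in iWAT. Genes of the absorptive cells of efferent ducts moved along in part: 5 of 9 were at 0.8 or more, with a range from 0.31 to 0.97. Those at 0.8 or more included the endocytic receptor Lrp2 (0.97, 2.30 to 157 CPM) and the sodium-proton exchanger Slc9a3 (0.96, 0 to 19.8 CPM). The likeness also reached genes of simple epithelia in general, of which 8 of 15 were at 0.8 or more (median 0.83, range -0.08 to 0.95). Elf3 (0.95), Prom1 (0.92), Krt8 (0.91) and Epcam (0.90) were among the 8. The genes named from these 2 lists are all ones at 0.8 or more. A correlation of 0.8 or more was reached by 1 of 7 genes of the distal epididymis and vas deferens (Gstm6, 0.94). The same held for 1 of 11 of male germ cells (Spata18, 0.96) and 1 of 25 of primary cilium transport (Bbs1, 0.80). Of 6 genes of the caput and corpus epididymis, 9 of mesothelium, 8 of smooth muscle, 11 of cell division and 8 of adipocytes, 0 were at 0.8. Which structure carried the ciliated cells cannot be told from these counts, so efferent duct is a label here and not a result.
The 15 genes most like the members' mean, out of the 14449, were Xylb, Bbox1, Dnaja4, Ush1c, Sntn, Ak7, Tctex1d4, Ccdc153, Ccdc121, Aqp4, Pipox, Tcte1, 4833427G06Rik, Nme9 and Zfp474, with correlations of 0.98 to 0.99. Sntn, Ak7 and Ccdc153 were on the list of multiciliated cell markers.

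Some libraries held genes of other parts of the tract. Akr1b7, a gene of the vas deferens, reached 3043 CPM in replicate 5 of the lean mice at 6 weeks, where Foxj1 was 0, and the summed level of the list of the distal epididymis and vas deferens was 6087 CPM there, 2576 CPM in replicate 2 of the lean mice at 2 weeks and 1331 CPM in obese replicate 5. It ran from 3.7 to 219.9 CPM in the other 44. Gpx5, a gene of the caput epididymis, was 174 CPM in replicate 5 of the lean mice at the time of obesity, the library highest in Foxj1. Their part in the differences between groups was not tested.

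In obesity 2 of the 40 members passed edgeR's test, against 23.1% of all 14489 genes. Spag5 rose by 1.73 ± 0.53 (adjusted p = 0.0155), with 1.06, 4.03, 0.995, 4.92 and 0.590 CPM in obese mice and 0.275, 0.453 and 1.40 CPM in lean mice, so the groups overlapped. Beside it, all 11 measured genes of a cell division list rose, with a median log2 fold change of 1.71. Spag11b, a defensin-like gene of the epididymis and no part of the axoneme, fell by 4.24 ± 1.49 on the log2 scale (adjusted p = 0.0345). It was 44.8 CPM in lean replicate 5 and 0, 0, 1.87, 0 and 0.993 CPM in the other lean mice, against 0.851, 0, 0.284, 0.117 and 0.708 CPM in obese mice. Without lean replicate 5 its log2 fold change was -0.59 (adjusted p = 0.831). The median log2 fold change of the 40 was -0.56, against -0.0025 over all genes. Of the 40 values 35 were negative, against 7293 of 14489 genes. With 25 of the 40 at a correlation of 0.8 or more with the others across libraries, sign counts are a description and no test, here and at later times. Multiciliated cell markers outside the name pattern had a median of -0.76, with 37 of 39 negative and 1 called. Absorptive cells of efferent ducts had one of -0.51, with 9 of 9 negative and 1 called. Leaving out obese replicate 2 or obese replicate 4 left 0 members called, beside 2432 and 1715 of 14489 genes.

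At 2 weeks 3 of 40 passed, against 35.4% of all genes. Beside the rise of Dnah17, Spag4, a nuclear envelope protein, fell by 1.21 ± 0.31 (adjusted p = 0.00190), from 1.05, 1.55 and 2.56 CPM in lean to 0, 0.819 and 1.15 CPM in regression mice. Its groups overlapped, and the 0 was in regression replicate 2, where 1 count is 0.758 CPM. Spag7 fell by 0.40 ± 0.10 (adjusted p = 0.00111), from 19.3, 21.7 and 25.1 to 17.7, 20.2 and 22.3 CPM, and its groups overlapped. The median log2 fold change of the members was 0.12 and 30 of 40 values were positive, against 7454 of 14489 genes. Multiciliated cell markers outside the name pattern had a median of 0.10, with 24 of 39 positive and 1 called. Absorptive cells of efferent ducts had one of -0.11, with 5 of 9 negative and 1 called. Genes of the distal epididymis and vas deferens had a median of -9.26, with 6 of 7 negative and 4 called lower. The part of these lists in the members' values was not tested. Without lean replicate 4, a library high in cilium genes, 5 members were called, beside 5137 of 14489 genes.

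At 6 weeks 1 of 40 passed, against 7.65% of all genes. Spag5 rose by 1.88 ± 0.55 (adjusted p = 0.0275), from 0.151, 0.420 and 0.776 CPM in lean to 0.933, 1.80 and 2.39 CPM in regression mice, with no overlap, and the call was lost when any of 7 of the 12 libraries was left out (adjusted p up to 0.0683). The median log2 fold change of the members was -1.05 and 34 of 40 values were negative, against 7935 of 14489 genes, again a description. Multiciliated cell markers outside the name pattern had a median of -1.93, with 38 of 39 negative and 0 called. Absorptive cells of efferent ducts had one of -1.56 (9 of 9 negative, 1 called). Simple epithelium had one of -3.69 (15 of 15 negative, 5 called). Genes of the distal epididymis and vas deferens had one of -10.0 (7 of 7 negative, 5 called). Smooth muscle genes were lower at that time in 7 of 8 cases, their sums reaching 6504 CPM in lean replicate 5. The part of these lists in the members' values was not tested.

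At 12 weeks 0 of 40 members passed edgeR's test, against 15.0% of all genes, with 13 members at an unadjusted p under 0.05, all 13 lower, and 0 called by DESeq2. The median log2 fold change was -1.55 and 35 of 40 values were negative, against a median of -0.0137 and 7501 of 14489 negative over all genes tested. Members vary together across libraries, so these sign counts are again a description. Multiciliated cell markers outside the name pattern had a median of -1.96, with 39 of 39 negative and 2 called. Among the other lists at this time, simple epithelium had a median of -2.04 (15 of 15 negative, 0 called) and absorptive cells of efferent ducts one of -1.67 (9 of 9 negative, 1 called). Genes of the distal epididymis and vas deferens had a median of -4.46 (7 of 7 negative, 0 called), and 5 of 11 male germ cell genes fell and 1 rose (median -0.60). Of 11 cell division genes 8 rose (median 1.57), and their summed level was 15.5 to 21.8 CPM in lean mice, 17.3 CPM in regression replicate 3, 15.9 CPM in regression replicate 6 and 75.9 to 107 CPM in the other 4. The part of these lists in the members' values was not tested. The count turned on 1 library. Without replicate 3 of the regression mice, 24 members were called, all lower, against 29.0% of all genes in that fit. They included Foxj1 (-8.80), Dnah5 (-7.20), Cfap44 (-6.39), Dnah10 (-4.87) and Dnah9 (-4.63). Spag16 was also among them and had 0 counts in all 5 remaining regression libraries. Replicate 3 was singled out by its high level of these genes, so the 24 calls are a description and no test. Summed over the members without the widely expressed ones such as Spag9, the level was 29.8 to 39.6 CPM in those 5 regression libraries and 530 CPM in replicate 3, against 86.8 to 592 CPM in lean mice. With them the sums were 332 to 374, 816, and 385 to 889 CPM.

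**Figure D4:**
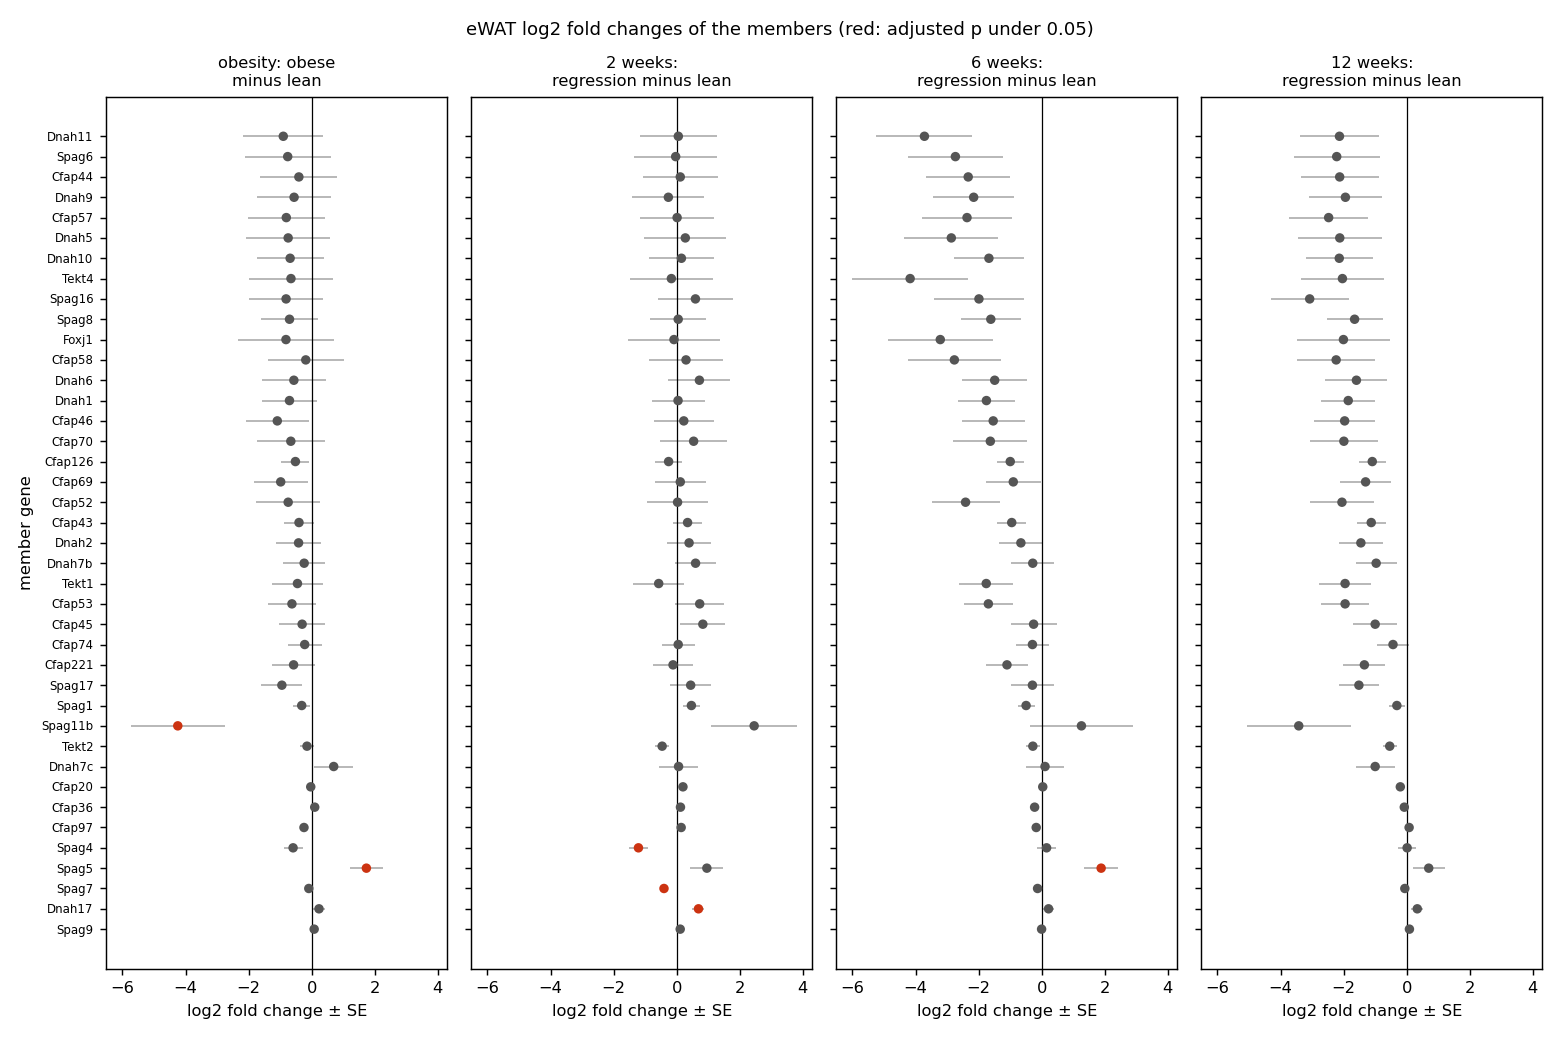
Fitted log2 fold change with its standard error for each member (rows) in the 4 eWAT comparisons (panels), obese or regression minus lean, with red for an adjusted p under 0.05. Error bars of the genes in the upper rows span more than 1 unit to each side. Most points in obesity and at 6 and 12 weeks lie left of 0. The red points are Spag11b and Spag5 in obesity, Spag4, Spag7 and Dnah17 at 2 weeks and Spag5 at 6 weeks.

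Over all 8 groups together, 9 of 40 members differed between any groups, against 49.2% of all genes: Spag11b, Spag5, Tekt2, Spag4, Dnah17, Spag7, Cfap126, Tekt1 and Cfap43. Without replicate 3 of the regression mice at 12 weeks, 30 members were called, beside 8028 of 14489 genes. That library was picked by its level of these genes, so this count is a description. From obesity to 2 weeks the difference between diets changed in 1 of 40 members, Spag11b (by 6.70 ± 2.01, adjusted p = 0.0377), against 5.85% of all genes. From obesity to 6 and to 12 weeks it changed in 0 of 40, against 1.39% and 2.28%, with 1 member at an unadjusted p under 0.05 each time. 
In iWAT, where 18 members were tested, 3 were called in obesity (against 30.1% of all genes): Cfap74 rose by 0.96 ± 0.37 (adjusted p = 0.0416), Cfap126 fell by 0.56 ± 0.19 (adjusted p = 0.0238) and Cfap97 fell by 0.27 ± 0.11 (adjusted p = 0.0462). At 2 weeks 1 was called (against 18.7%), Tekt1, which fell by 3.05 ± 0.80 (adjusted p = 0.00645) from 0.160 to 1.19 CPM in lean to at most 0.252 CPM in regression mice. At 6 and 12 weeks 0 of 18 were called (against 1.05% and 0.0287%), with 3 and 0 at an unadjusted p under 0.05 and 0 by DESeq2 at both times.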

How the data were processed

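The deposited tables give raw counts, 1 row per gene symbol, for 94 libraries. The submitters' processing notes name DESeq2 1.38.3, R 4.2.2, STAR 2.4.1c and the build mm10. No source used here gives the counting program, annotation or strand setting. The authors' own comparison tables were not used. Library totals were 1.32 to 25.9 M (eWAT) and 6.27 to 34.3 M counts (iWAT), and no replicate pair agreed within sampling noise. CPM were computed from plain library totals. Each depot was fitted over its 47 libraries with edgeR 4.0.16 (R 4.3.3; TMM, quasi-likelihood F-test, two-sided, genes averaging 0.5 CPM or more); calls are adjusted p-values under 0.05 (Benjamini-Hochberg, over all genes tested). Standard errors were derived from the F statistic. DESeq2 1.42.0 was an alternative. Likeness is Pearson's r of log2(CPM + 0.5). Gene positions come from GENCODE on mm10. Named genes are Foxj1, the highest member of each role, called members and the 15 genes most like the members' mean. Further members and list genes are named as examples, most of the list genes for a high correlation or level. The scripts were tested on simulated data. The members and the 12 gene lists were chosen with earlier results of these data known.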

Additional observations from a re-analysis of the deposited data

Results flagged for a closer look

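Within eWAT groups, the highest or lowest library was compared with its nearest neighbour by the gap over the group's range, for the summed members and 11 genes in 8 groups. This made 96 groups, and 22 values stood apart. The cut-offs have a known error rate only for independent, normally spread values. These CPM are skewed and the genes vary together, so the count is not set against chance. Replicate 3 of the regression mice at 12 weeks stood apart as the highest for the summed members (816 CPM, next 374 CPM), Foxj1 (240 CPM, next 0.836 CPM), Dnah5 (32.8 CPM), Dnah10 (17.7 CPM) and Cfap69 (10.2 CPM). Replicate 3 of the lean mice at 6 weeks stood apart as the highest for the summed members (678 CPM, next 438.5 CPM), Foxj1 (168 CPM), Dnah10 (12.9 CPM) and Cfap69 (7.44 CPM). Obese replicate 4 stood apart as the lowest obese library for Foxj1 (0.117 CPM, next 71.2 CPM), Dnah5 (0.234 CPM) and Dnah10 (0.234 CPM). That library was also the highest of all 47 in Mki67, a marker of dividing cells, at 83.4 CPM.

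Dnah5 was also high in lean replicate 4 at 2 weeks (38.4 CPM) and in regression replicate 2 at 6 weeks (3.57 CPM). Spag11b was far above the rest in lean replicate 5 at the time of obesity (44.8 CPM, next 1.87 CPM), in lean replicate 4 at 2 weeks (2.24 CPM, the others at 0) and in regression replicate 3 at 6 weeks (2.46 CPM, the others at 0). Among genes that many cells express, Spag9 stood apart in regression replicate 2 at 2 weeks (312 CPM, highest) and in regression replicate 4 at 6 weeks (201 CPM, lowest), and Spag7 in regression replicate 2 at 12 weeks (28.6 CPM, highest). Tekt2 was highest in regression replicate 3 at 6 weeks (6.10 CPM), and Dnah17 was lowest in regression replicate 6 at 12 weeks (3.07 CPM).

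One member's difference changed between times. The log2 fold change of Spag11b at 2 weeks minus that in obesity was 6.70 ± 2.01 (adjusted p = 0.0377, edgeR), where 5.85% of all genes were called, and it draws on lean replicate 5 at the time of obesity. No other member was called in the changes from obesity to 2, 6 or 12 weeks, with 4, 1 and 1 members, Spag11b included at 2 weeks, at an unadjusted p under 0.05; DESeq2 was not run on these changes.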

How the results depend on the processing

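Counts of called members were small, so 1 gene moved several of them. In eWAT obesity, where 2 members were called, the replicate block and the mouse series as a term each called 1, and the compared groups alone and each mouse series apart called 0. At 2 weeks (3 called) each series apart called 1, and at 6 weeks (1 called) each called 0. At 12 weeks (0 called) the compared groups alone called 2 and the replicate block called 2. In iWAT obesity (3 called) no count filter and the compared groups alone called 1 each, the series as a term called 5, and the series apart called 0 (replicates 4 to 6) and 1 (replicates 1 to 3); at 2 weeks (1 called) each series apart called 0. Leaving out 1 library at a time gave 0 to 2 called in eWAT obesity, 3 to 5 at 2 weeks, 0 to 1 at 6 weeks, 0 to 24 at 12 weeks and 7 to 30 over all groups, and in iWAT 1 to 6 in obesity, 1 at 2 weeks and 0 at 6 and 12 weeks. The 24 and the 30 both came from leaving out regression replicate 3 at 12 weeks, where 4196 and 8028 of 14489 genes were called. The causes were not tested, except that fits of fewer libraries hold fewer mice.

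The sign of Foxj1 reversed in obesity for replicates 1 to 3 apart (0.49) and on the log2(CPM + 0.5) scale (0.30). At 2 weeks it reversed with the series as a term (0.052), for replicates 4 to 6 apart (0.39), on the log2(CPM + 0.5) scale (2.37) and in 5 of 12 fits without 1 library (range -0.60 to 1.07). At 6 weeks it reversed for replicates 4 to 6 apart (5.41). None of these values passed its test. Replicate numbers are shared between groups but do not pair mice: in every comparison at least 1 same-numbered pair had a negative correlation of deviations from the group means. The number of members (35 to 43 under other thresholds) kept its size. The mean differences of the summed members moved under their alternatives by less than the standard deviation of the lean sums. That limit is wide, since lean sums at the time of obesity ran from 306 to 1044 CPM. Those differences need not have kept their size. In the shallowest library, at 1.32 M counts, a member at 0 can lie below 2.27 CPM.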
